A study of Rattus norvegicus with 6 samples.

Results

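The BCL2 family of mitochondrial apoptosis was examined as 10 genes, taken from the deposited table of gene counts by their symbols. All 10 are listed there, among 22574 symbols. They comprise the pro-survival genes Bcl2, Bcl2l1, Bcl2l2 and Mcl1, the effectors Bax and Bak1, and the BH3-only genes Bcl2l11, Bid, Bbc3 and Pmaip1. Their RNA was measured in 6 libraries of rat aortic vascular smooth muscle cells (RASMCs), a primary culture from the aorta of male Sprague-Dawley rats after the adventitia and the endothelium had been taken off. In 3 libraries the RASMCs had received citrullinated histone H3 (H3CIT) and double-stranded DNA (dsDNA), which are constituents of extracellular traps, and 3 libraries came from control RASMCs given bovine serum albumin. The labels give no genetic change for either group. According to the study's reporting summary, in vitro replicates were wells of cells from the same rat. Whether this holds for the sequenced wells is not stated separately. The p-values below are therefore taken to measure the spread between wells and libraries and not between animals. The comparison asks how the genes that hold or release the mitochondrial brake on apoptosis differed after the challenge, and whether pro-survival and pro-death members went the same way.

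As background, BCL2 proteins decide whether the outer mitochondrial membrane stays intact. BH3-only proteins report stress, pro-survival proteins bind and restrain them together with the effectors, and freed BAX and BAK form pores through which cytochrome c leaves to start the caspase cascade. In the vessel wall, loss of smooth muscle cells by apoptosis thins the fibrous cap of a plaque.

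Library totals lay between 17573905 and 18742395 counts. Levels are given as CPM, counts scaled to a common library size after TMM, and a level of one gene is compared only with that of the same gene, because gene lengths of the build behind the counts were not used. Genes count as called, higher or lower, where edgeR's quasi-likelihood test over the 12591 genes tested left an adjusted p-value below 0.05. Changes are on the log2 scale, H3CIT+dsDNA over control, with their standard error (SE). All 7 smooth muscle markers were detected, and their summed level was 8466 to 9207 CPM in controls and 5706 to 6262 CPM after H3CIT+dsDNA, with Acta2, Tagln, Cnn1 and Smtn called lower. Smtn lost its call in 9 of 15 alternatives. The other 3 markers were not called, Myh11 at a log2 change of 0.06, Des at -0.06 and Lmod1 at -0.06 (edgeR adjusted p = 0.461 for Myh11). The 6 leukocyte and macrophage markers summed to 22.3 to 22.9 CPM in controls and 19.5 to 23.5 CPM after the challenge. The 5 endothelial markers summed to 9.21 to 10.1 CPM and 7.89 to 8.74 CPM, and the 4 fibroblast markers to 0.970 to 1.85 CPM and 1.597 to 1.82 CPM. No marker of these lists was at 0 in all libraries, although Kdr and Ptprc each had 1 count over the 6 libraries together and Itgam had 2, and none of the 8 genes of these 3 lists that had enough counts to be tested was called. In bulk RNA, fewer cells of a type and less RNA per cell cannot be told apart.

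The sequences that follow lie before the start sites of Bak1, Bid and Bcl2l11, which rose, and of Bcl2 and Bcl2l2, which fell, so that both kinds of member can be read side by side. Bcl2l1 also fell, but it has 4 start sites listed and their sequences are not printed. RefSeq start sites of the rat assembly GRCr8 were at hand for 8 of the 10 members, not for Bax and Bbc3. Each line gives the 250 bases before the start, 5′ to 3′ on the strand of the gene, with matches to the motifs named after them in capitals.
Bak1, chr20:5110975-5111224, minus strand: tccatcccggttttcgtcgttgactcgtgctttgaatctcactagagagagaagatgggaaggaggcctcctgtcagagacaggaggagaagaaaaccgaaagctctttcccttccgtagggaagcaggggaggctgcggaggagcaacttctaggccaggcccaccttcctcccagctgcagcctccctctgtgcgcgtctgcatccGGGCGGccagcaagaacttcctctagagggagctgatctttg
Bid, chr4:155808320-155808569, minus strand: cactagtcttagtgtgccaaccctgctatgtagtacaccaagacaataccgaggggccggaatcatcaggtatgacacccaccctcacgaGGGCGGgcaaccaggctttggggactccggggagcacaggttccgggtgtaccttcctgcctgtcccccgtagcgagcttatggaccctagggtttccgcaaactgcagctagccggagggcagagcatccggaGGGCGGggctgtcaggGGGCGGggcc
Bcl2l11, chr3:135819792-135820041, plus strand: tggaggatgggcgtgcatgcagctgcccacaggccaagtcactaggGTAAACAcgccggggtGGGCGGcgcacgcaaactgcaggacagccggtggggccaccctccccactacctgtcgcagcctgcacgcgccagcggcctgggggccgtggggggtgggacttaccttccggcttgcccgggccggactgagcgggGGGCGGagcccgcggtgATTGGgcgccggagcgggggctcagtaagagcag
Bcl2, chr13:23366901-23367150, minus strand: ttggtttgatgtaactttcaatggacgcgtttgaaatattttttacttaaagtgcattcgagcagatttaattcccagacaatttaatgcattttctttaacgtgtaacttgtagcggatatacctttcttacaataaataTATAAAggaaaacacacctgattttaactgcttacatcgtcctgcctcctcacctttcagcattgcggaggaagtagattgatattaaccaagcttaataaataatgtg
Bcl2l2, chr15:32326511-32326760, plus strand: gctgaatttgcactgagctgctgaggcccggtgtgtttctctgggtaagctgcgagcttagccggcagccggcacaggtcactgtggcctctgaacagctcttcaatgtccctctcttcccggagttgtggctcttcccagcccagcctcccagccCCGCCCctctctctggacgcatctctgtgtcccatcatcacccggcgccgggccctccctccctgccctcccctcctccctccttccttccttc

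Of these windows, 57.6% of the bases were G or C for Bak1, 62.8% for Bid, 72.0% for Bcl2l11 and 64.0% for Bcl2l2, against 33.6% for Bcl2. The 4 windows of Bcl2l1, not printed, had 41.2%, 51.2%, 60.0% and 57.6%. The median over all 33469 start sites in the RefSeq table was 51.2%. The GC box (GGGCGG) was searched on both strands, as were the CCAAT box (CCAAT), the TATA box (TATAAA), a FOXO motif (GTAAACA), a STAT motif (TTCNNNGAA), the AP-1 motif (TGANTCA) and the CRE (TGACGTCA). No match overlapped another. The GC box stood before 6 of the 8 members, with 3 matches for Bid, 2 for Bcl2l11 and 1 each for Bak1, Bcl2l2, Mcl1 and Pmaip1, and it stood before 30.5% of all start sites. The FOXO motif stood before Bcl2l11 and none of the other members, against 3.21% of all start sites. The letters of the TATA box were found before Bcl2, against 12.9% of all start sites. Matches were taken anywhere in the window, so their distance to the start was not weighed. The CCAAT box stood before Bcl2l11 and before 2 of the 4 start sites listed for Bcl2l1, against 34.0% of all. The STAT motif was found at the same 2 start sites of Bcl2l1, whose windows share bases, against 7.67% of all. The AP-1 motif (6.34% of all) and the CRE (1.59% of all) were found before none of the 8 members. These are matches of letters, and binding of a factor was not measured here.

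Of the 10 members, 7 were called, 4 higher and 3 lower after H3CIT+dsDNA, where 2.2% of all genes tested were called, 1.94% higher and 0.262% lower. The 4 that rose are all pro-death genes and the 3 that fell are all pro-survival genes. The median log2 change was 1.66 over the 6 pro-death members and -0.44 over the 4 pro-survival members, beside a median of -0.00 over all genes tested. The same 4 rises and 3 falls were called under each of 15 alternatives of scaling, filter, test and left-out library. All 10 members passed the filter on low counts. The study showed Bax and Bak1 among the apoptotic genes of a heat map drawn from these libraries, so their rise is not independent evidence. In the same libraries 4 of the 7 smooth muscle markers were called lower while Myh11, Des and Lmod1 were not called, and the part of this in these results was not tested.

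**Figure D1:**
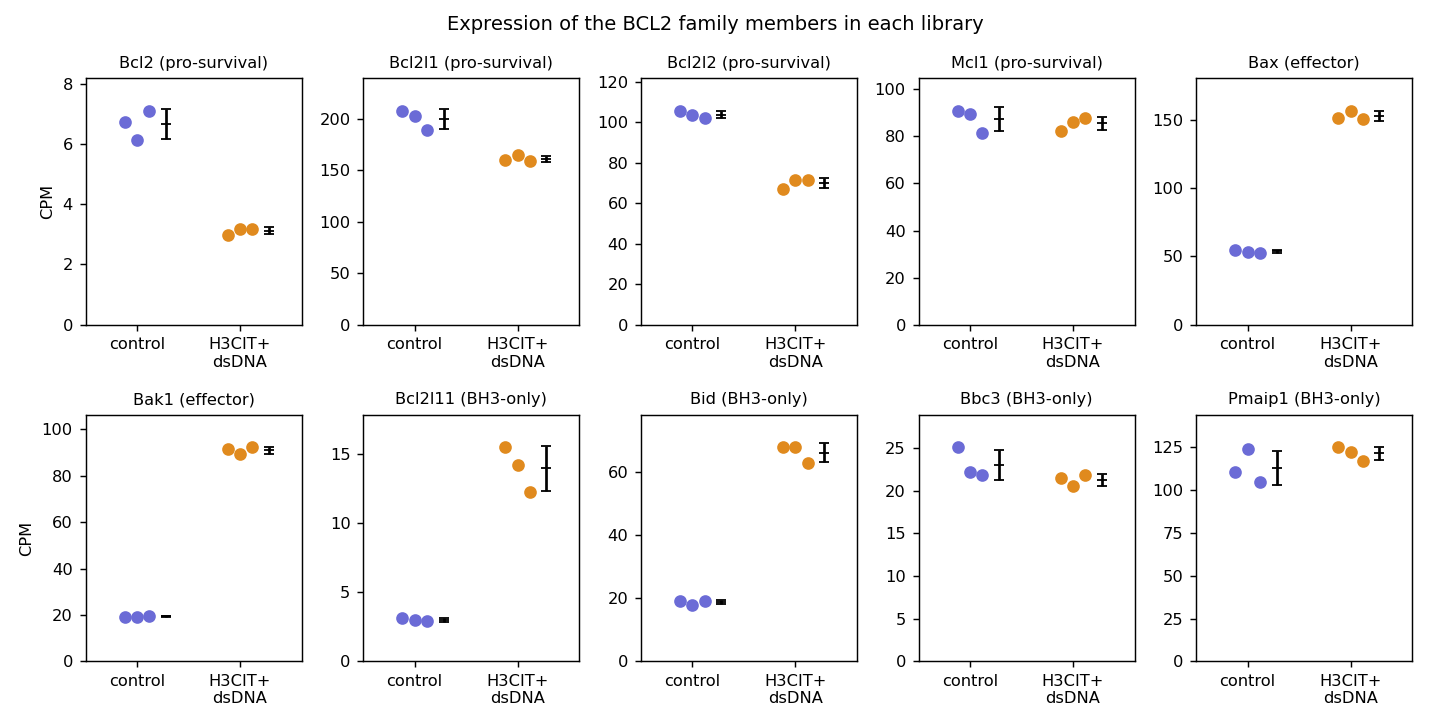
Expression of each of the 10 members in CPM, with 1 point per library, blue for the 3 controls and orange for the 3 H3CIT+dsDNA libraries, and the mean with its SD in black beside the points. Each panel has its own axis starting at 0, and the groups lie far apart in Bax, Bak1, Bcl2l11 and Bid, which rose, and are separate in Bcl2, Bcl2l1 and Bcl2l2, which fell.

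The effectors come first, since BAX and BAK are the pore-forming proteins on which the other members act. Bak1 had 1657, 1575 and 1676 counts in the H3CIT+dsDNA libraries, beside 343, 356 and 366 in control libraries. Every challenged library was far above every control, at 91.0 ± 1.51 CPM (SD, n = 3) against 19.4 ± 0.300 CPM (SD, n = 3). The log2 change was 2.23 (SE 0.05, edgeR adjusted p = 1.31e-11), a 4.70-fold rise. By adjusted p-value Bak1 ranked 1 among the 12591 genes tested, a rank it shared through a tie. Bax had 2749, 2765 and 2732 counts after the challenge, beside 980, 990 and 978 in control libraries. The groups lay far apart, and the level rose to 153 ± 3.42 CPM (SD, n = 3) where controls had 53.6 ± 1.14 CPM (SD, n = 3). Its log2 change was 1.51 (SE 0.04, edgeR adjusted p = 9.86e-11), a 2.85-fold rise. Over the alternatives Bak1 stayed between 2.21 and 2.25 on the log2 scale and Bax between 1.49 and 1.53.

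The BH3-only genes fell into a pair that rose and a pair that was not called. Bid, whose protein is cut by caspase-8 and carries the death receptor signal to mitochondria, had 1228, 1194 and 1138 counts after H3CIT+dsDNA, beside 343, 333 and 355 in control libraries. Its groups did not overlap, with 66.1 ± 2.92 CPM (SD, n = 3) against 18.8 ± 0.710 CPM (SD, n = 3), and the log2 change was 1.82 (SE 0.06, edgeR adjusted p = 4.18e-10). Bcl2l11, which encodes BIM, a binder of every pro-survival member, had 281, 250 and 222 counts beside 56, 55 and 54 in controls, or 14.0 ± 1.64 CPM (SD, n = 3) against 3.004 ± 0.119 CPM (SD, n = 3). The lowest challenged library, at 12.2 CPM, was far above the highest control, at 3.14 CPM, and the log2 change was 2.22 (SE 0.13, edgeR adjusted p = 1.21e-07), a 4.64-fold rise. In the GRCr8 annotation Bcl2l11 overlaps Acoxl, which had at most 4 counts in any library.

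Bbc3, which encodes PUMA, and Pmaip1, which encodes NOXA, the inhibitor of MCL1, are the other BH3-only members. Bbc3 had 389, 362 and 396 counts after the challenge, beside 448, 412 and 406 in control libraries, or 21.3 ± 0.656 CPM (SD, n = 3) against 23.1 ± 1.78 CPM (SD, n = 3). The ranges in CPM just failed to meet, at 20.5 to 21.8 and 21.9 to 25.1, and such separate groups were seen in 8 of the 10 members and in 19.1% of all genes tested. Its log2 change of -0.12 had a 95% interval of -0.28 to 0.04 (edgeR adjusted p = 0.525). Pmaip1 had 2265, 2151 and 2122 counts beside 1969, 2299 and 1944, with control replicate 2 above 2 of the 3 challenged libraries in CPM. Its log2 change of 0.10 had a 95% interval of -0.02 to 0.23 (edgeR adjusted p = 0.467). Both intervals exclude a change as large as those of Bid and Bcl2l11, whose intervals were 1.69 to 1.94 and 1.93 to 2.50.

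Among the pro-survival genes 3 of 4 fell, each by less than the smallest rise among the pro-death genes called. Bcl2, the founding member of the family, had 54, 56 and 58 counts after H3CIT+dsDNA, beside 120, 114 and 132 in control libraries. No challenged library came near a control, and the level fell to 3.12 ± 0.121 CPM (SD, n = 3) where controls had 6.66 ± 0.487 CPM (SD, n = 3). The log2 change was -1.09 (SE 0.15, edgeR adjusted p = 0.000765), so that controls were 2.13-fold higher. Bcl2l2, which encodes BCL-W, had 1219, 1262 and 1296 counts beside 1890, 1921 and 1900. Its level of 70.1 ± 2.47 CPM (SD, n = 3) lay below that of 104 ± 1.80 CPM (SD, n = 3) in controls with a wide gap between the groups, and the log2 change was -0.57 (SE 0.04, edgeR adjusted p = 1.60e-06).

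Bcl2l1, which encodes BCL-XL and by splicing also the pro-death BCL-XS, had the smallest of the called changes. Its counts were 2895, 2900 and 2876 after the challenge and 3708, 3763 and 3501 in controls, without overlap. The level fell to 161 ± 3.24 CPM (SD, n = 3) where controls had 200 ± 9.92 CPM (SD, n = 3), a log2 change of -0.31 (SE 0.04, edgeR adjusted p = 0.000628). Counts per gene do not tell the 2 splice forms apart. Mcl1, whose protein turns over within a short time and restrains BAK, had 1495, 1518 and 1595 counts beside 1623, 1658 and 1513. The groups overlapped, and its log2 change of -0.03 had a 95% interval of -0.14 to 0.08 (edgeR adjusted p = 0.842), which lies above the falls of the other 3 pro-survival genes.

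**Figure D2:**
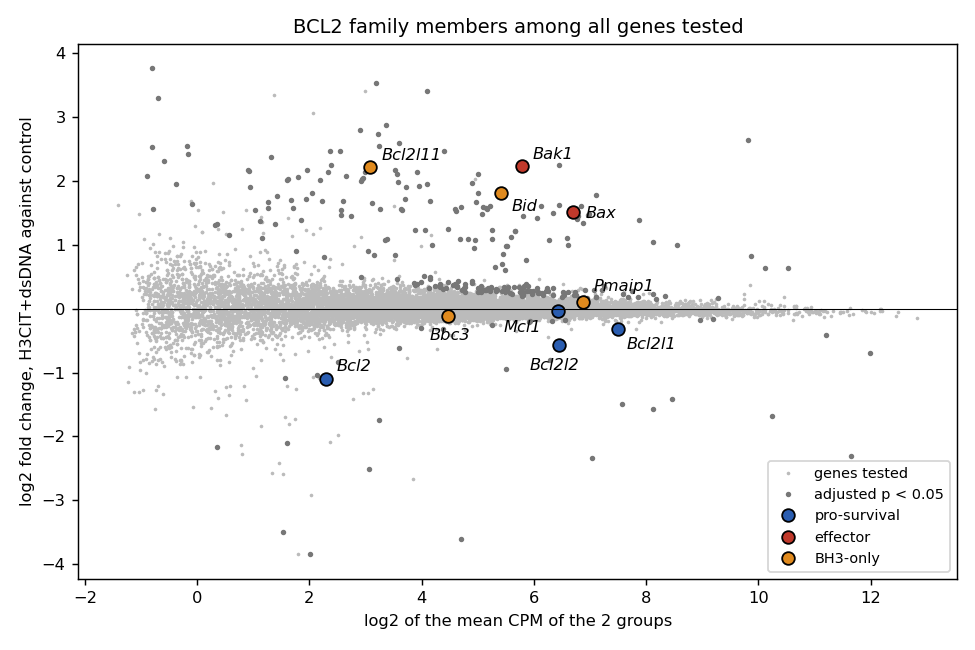
Log2 fold change of H3CIT+dsDNA against control over the log2 of the mean CPM for the 12591 genes tested (light grey), the called genes (dark grey) and the 10 members (large points coloured by role). Bak1, Bcl2l11, Bid and Bax stand between 1.51 and 2.23, Bcl2, Bcl2l2 and Bcl2l1 between -1.09 and -0.31, and Mcl1, Bbc3 and Pmaip1 within the band of genes around 0.

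The balance between both sides of the family was taken within each library, where it needs no scaling. These ratios and sums are descriptions without a test, and since they are not corrected for gene length only the change between groups can be read from them. There were 50.9, 49.4 and 47.1 counts of Bax for each count of Bcl2 in the challenged libraries and 8.17, 8.68 and 7.41 in controls. On the log2 scale the mean of this ratio was 5.62 ± 0.06 (SD, n = 3) after H3CIT+dsDNA and 3.01 ± 0.12 (SD, n = 3) in controls, a difference of 2.61, or 6.09-fold. For Bak1 over Mcl1, a pair that binds directly, the log2 ratio differed by 2.26 between the groups, and for Bak1 over Bcl2l1 by 2.54. Bax over Bcl2l1 stood at -0.07 in each challenged library and between -1.93 and -1.84 in controls. Pmaip1 over Mcl1, a BH3-only gene and its main target, overlapped between the groups and differed by 0.13. Pro-death members took 58.7% to 60.2% of the counts of the 10 members after the challenge and 36.1% to 37.3% in controls. In summed levels, the effectors went from 72.4 to 74.1 CPM up to 243 to 246 CPM, while the pro-survival genes together went from 380 to 411 CPM down to 312 to 325 CPM.

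**Figure D3:**
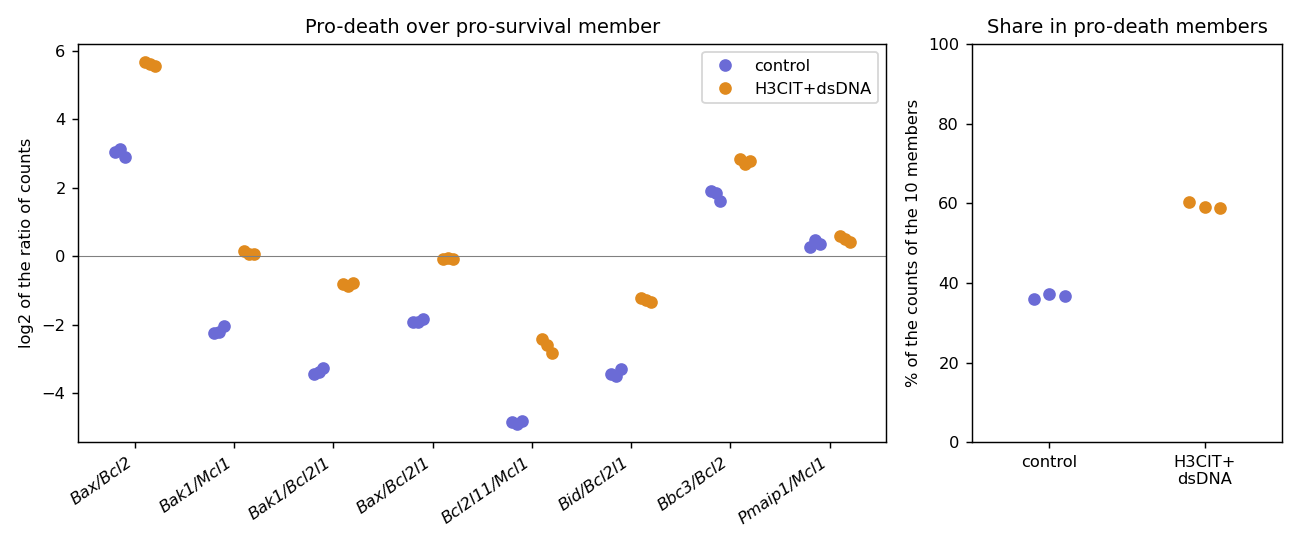
Left, log2 of the ratio of the counts of a pro-death to a pro-survival member in each library, blue for controls and orange for H3CIT+dsDNA. Right, the percentage of the counts of the 10 members that fell on the 6 pro-death members, on an axis from 0 to 100; the challenged libraries lie at 58.7% to 60.2% and the controls at 36.1% to 37.3%.

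The spread of these counts between replicates was small. If counting were the only source of spread, the variance of the 3 counts of a group would be about equal to their mean, whereas the median ratio of variance to mean over genes with a mean of at least 20 counts was 1.82 in controls and 1.63 after the challenge. For Bax the ratio was 0.0421 in controls and 0.0991 after the challenge. It was 0.0182 for Bcl2l11 in controls, whose counts were 3 consecutive whole numbers, and 0.0714 for Bcl2 and 0.0555 for Bcl2l1 in the challenged libraries. Thus 2 of 10 members in controls and 3 of 10 after the challenge had a ratio under 0.1. Of all such genes 4.59% and 4.85% did, and of the called ones 16.2% and 12.2%. A small spread lowers the p-value, so the calling itself favours such genes. With 3 counts the ratio of a single gene also varies widely. The cause of this spread was not tested. Whether the deposited values are unaltered read counts could not be checked here, and the counts and edgeR's p-values given for these and the other genes hold only if they are.

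Of the other BCL2 family genes, 13 were looked for and 10 had enough counts to be tested, of which 1 rose and 3 fell, with a median log2 change of -0.02. The heat map of the study also holds Bok, an effector-like relative of Bax and Bak1. Bok had 1200, 1231 and 1221 counts beside 343, 335 and 332 and a log2 change of 1.88 (SE 0.06, edgeR adjusted p = 1.72e-10). With it, all 3 pore-forming members of the family were higher in every challenged library than in any control. The same held in CPM for 1343 of all 12591 genes tested. The 3 that fell were not assigned to the pro-survival or the pro-death side here, so they do not enter the contrast between those sides. Bcl2l13, a mitochondrial protein and mitophagy receptor, fell by 0.80 on the log2 scale (edgeR adjusted p = 1.70e-07), with 1021, 1020 and 1023 counts beside 1879, 1760 and 1789. Bcl2l14 fell by 1.08 (edgeR adjusted p = 0.0116), from control counts of 76, 77 and 67 to 39, 28 and 35. Its adjusted p was 0.0582 without control replicate 1 and 0.0583 without control replicate 2. Bcl2l12, with 326, 330 and 343 counts beside 436, 413 and 423, fell by 0.32 (edgeR adjusted p = 0.0289). Its call was lost with DESeq2 (adjusted p = 0.0832) and without H3CIT+dsDNA replicate 1 (0.146), H3CIT+dsDNA replicate 2 (0.0645), H3CIT+dsDNA replicate 3 (0.0700), control replicate 1 (0.139) or control replicate 3 (0.0502), and under the block on replicate number (0.0822).

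The remaining BH3-only genes were not called. Bad, which growth factor signalling through AKT holds inactive, had 1603, 1590 and 1593 counts beside 1693, 1715 and 1649 and a log2 change of -0.05 (edgeR adjusted p = 0.623). Bmf was at 0.04 (edgeR adjusted p = 0.865). Bik, at 12, 14 and 16 counts against 8, 6 and 7, had a log2 change of 1.01 with a 95% interval of 0.22 to 1.81 (edgeR adjusted p = 0.219), too few counts to settle a change of that size. The pro-survival gene Bcl2a1 had 23, 31 and 32 counts beside 45, 54 and 54, groups that do not overlap, and a log2 change of -0.80 (edgeR adjusted p = 0.102). The mitophagy genes Bnip3 and Bnip3l were at 0.01 and 0.15 and were not called. Bcl2l10 and Hrk had 0 counts in all libraries, which allows up to 0.170 CPM (3 counts) in the shallowest library by counting error alone, and Bcl2l15 had at most 5 counts.

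Downstream of the mitochondrial pore, 8 genes of the apoptosome, the caspases and the factors released from mitochondria were tested and are reported, of which 4 rose and none fell, with a median log2 change of 0.56. The study's heat map, drawn from these libraries, holds 3 of these 4, all but Casp8, so their direction is not independent evidence. Casp9, the initiator caspase of this pathway, had 789, 879 and 886 counts beside 232, 212 and 221 (log2 change 1.97, edgeR adjusted p = 2.44e-09). Casp8, the protease that cuts BID, had 165, 214 and 166 counts beside 43, 45 and 44 and a log2 change of 2.07 (SE 0.16, edgeR adjusted p = 2.45e-06). Of the proteins kept between the mitochondrial membranes, Htra2 rose by 1.48 and Aifm1 by 1.07 on the log2 scale. The others were not called. Cycs, the gene of cytochrome c, was at -0.10 (edgeR adjusted p = 0.547), Apaf1, the scaffold of the apoptosome, at 0.05 (adjusted p = 0.806), Diablo at -0.13 (adjusted p = 0.376) and Endog at -0.26 (adjusted p = 0.313). Casp6 had 0 counts in all 6 libraries.

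**Figure D4:**
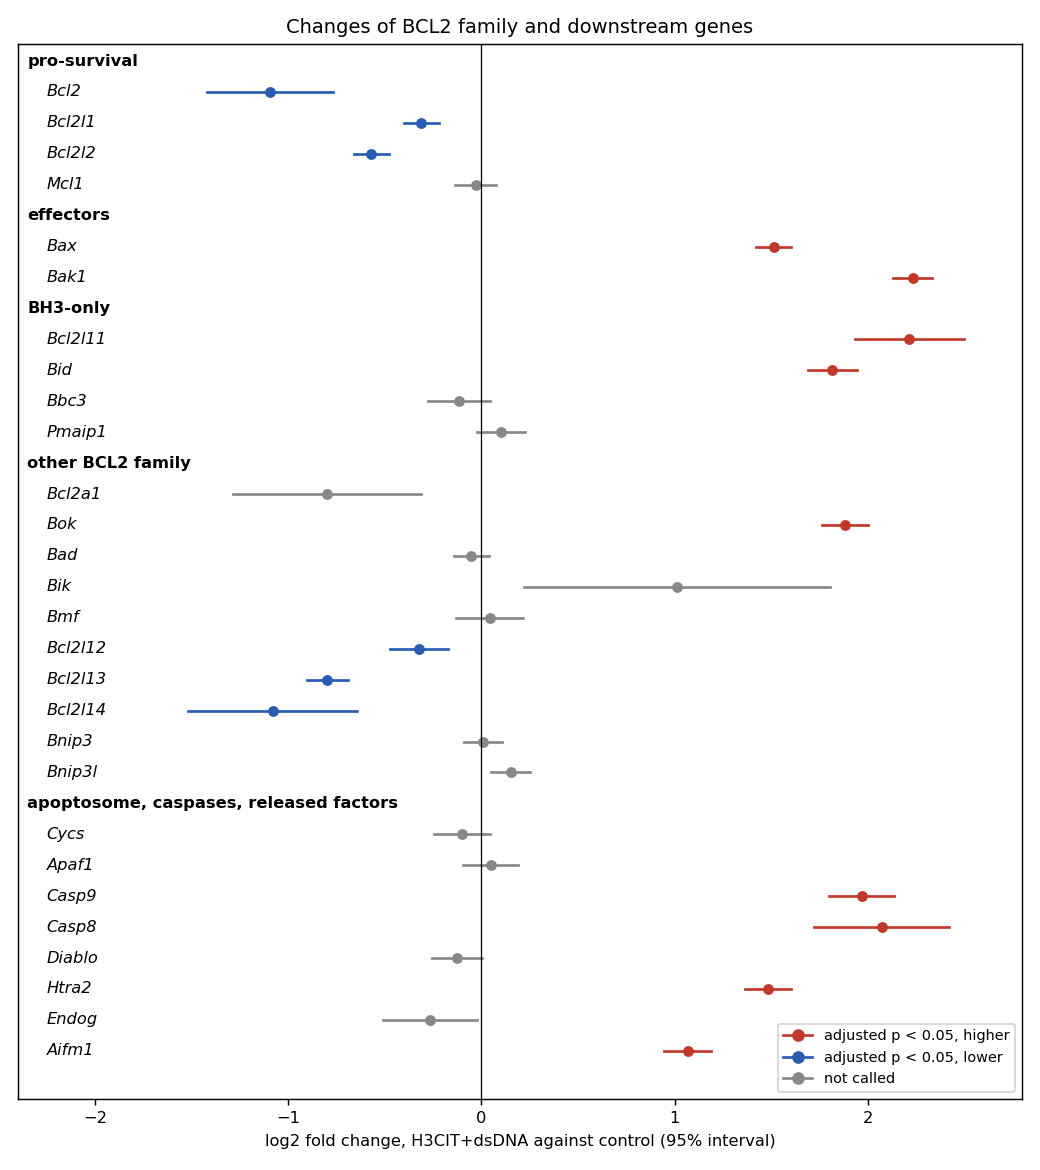
Log2 fold changes (points) with 95% intervals (lines) from edgeR for the 10 members by role, the 10 other BCL2 family genes tested and 8 tested genes of the apoptosome, caspases and released factors, in red for genes called higher, in blue for genes called lower and in grey for genes not called. The intervals of Bax, Bak1, Bid, Bcl2l11, Bok, Casp9, Casp8 and Htra2 lie wholly above 1.

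Of 5 inhibitors of apoptosis, 1 was called. Xiap, which encodes a direct inhibitor of caspases, was higher, with 391, 308 and 353 counts beside 197, 274 and 280 (log2 change 0.52, edgeR adjusted p = 0.0385). Its call did not survive leaving out H3CIT+dsDNA replicate 1 (adjusted p = 0.225), H3CIT+dsDNA replicate 3 (0.118), control replicate 1 (0.119) or control replicate 2 (0.0663), nor the block on replicate number (0.107). Birc2, Birc3 and Birc5 were not called, at 0.02, -0.20 and -0.06 on the log2 scale. Birc6, at 0.22 (edgeR adjusted p = 0.160), passed the threshold when H3CIT+dsDNA replicate 2 (0.0222) or control replicate 3 (0.0484) was left out. Among 10 genes of the mitochondrial membranes with which the family interacts, none was called, and log2 changes ran from -0.08 to 0.13. They include the channel genes Vdac1, Vdac2 and Vdac3, Mtch2, the receptor of cleaved BID, and Opa1 and Dnm1l of mitochondrial fusion and fission. The lowest adjusted p of the 10 was that of Opa1 (log2 change 0.12, edgeR adjusted p = 0.253), which was also the 1 gene of them with an unadjusted p-value under 0.05. None of the 10 was called with DESeq2, limma-voom or any other of the 15 alternatives.

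Of 17 genes that govern the transcription or turnover of the members, 16 are listed and were tested, 2 rose and 1 fell, with a median log2 change of -0.01. Akt1, whose kinase restrains BAD and the FOXO factors, had 3087, 3674 and 3638 counts after the challenge, beside 9565, 9400 and 9243 in control libraries, a log2 change of -1.41 (edgeR adjusted p = 5.96e-09), so that controls were 2.66-fold higher. Atf4, a factor of the integrated stress response, rose to 1201 ± 28.8 CPM (SD, n = 3) where controls had 675 ± 39.9 CPM (SD, n = 3), a log2 change of 0.83 (edgeR adjusted p = 2.39e-08), whereas its target Ddit3 was at -0.04 (adjusted p = 0.843). Usp9x, a deubiquitinase that stabilizes MCL1, was called at 0.30 (edgeR adjusted p = 0.0292). The call of Usp9x was lost with robust dispersion estimates (0.0928), under the block on replicate number (0.0519) and without H3CIT+dsDNA replicate 1 (0.187), H3CIT+dsDNA replicate 3 (0.122), control replicate 1 (0.0873) or control replicate 2 (0.0985). Foxo1 and Foxo3, activators of Bcl2l11 and Bbc3, were at 0.31 and 0.06 and were not called. Stat3 was at -0.02, Rela at -0.01 and Nfkb1 at 0.01. Mdm2, a ubiquitin ligase, was at -0.01 (edgeR adjusted p = 0.961) and Cdkn1a, an inhibitor of the cell cycle, at -0.04 (edgeR adjusted p = 0.699).

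The likeness of other genes to each called member was taken as Pearson's r of log2 CPM over the 6 libraries, a description in which the difference between both groups sets most of the value. For Bak1 the 3 most alike genes were Ccar2, Parp2 and Ereg, and for Bax Kat5, Bok and Parp3, all with r of at least 0.999. For Bid they included Btrc and Parp3, also with r of at least 0.999, and for Bcl2l11 Igf1, Bid and Parp3, with r from 0.997 to 0.999. Parp3 thus stood among the 3 most alike genes of Bax, Bid and Bcl2l11. Among the members that fell, Bcl2l2 was closest to Akt1, Col1a1 and LOC361016 (r of at least 0.993), Bcl2 to Nlgn3, Srsf3 and Lrp6 (0.996 to 0.997) and Bcl2l1 to Tinf2, Blcap and Ebp (0.988 to 0.989).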

How the data were processed

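RNA of RASMCs was sequenced in 3 H3CIT+dsDNA and 3 control libraries, grouped by their labels. Libraries were made with a stranded mRNA kit. The deposited values are whole-number counts per gene, which the authors describe as HTSeq counts of reads from TopHat alignments to Rnor6.0. Without the reads it could not be checked that they are unaltered counts, and the tests treat them as such. The submitters' processing notes also list TopHat2 2.1.1, Cufflinks 2.2.1 and Cuffdiff. The strand setting of the counting is not given in the sources used here, so reads of overlapping genes cannot be told apart; in GRCr8 Bcl2, Bcl2l1, Bak1 and Bcl2l11 overlap another gene.

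Low counts were removed by filterByExpr and library sizes were scaled by TMM. The groups were compared two-sided with edgeR 4.0.16 (R 4.3.3, limma 3.58.1) by its quasi-likelihood test, and p-values were adjusted by Benjamini-Hochberg for the 12591 genes tested. No covariate was used. Standard errors were taken as the absolute unshrunken coefficient over the root of F, and intervals are at 95%. An exact permutation test of 3 against 3 cannot give a p-value under 0.1. edgeR's common BCV, the relative spread between replicates beyond counting, was 0.0585. Replicate pairs all differed beyond counting noise, with chi-square values per gene of 3.33 to 6.97. Intervals at 0 counts cover counting error only.

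The members and gene lists were chosen with earlier results of these data known. Every member is named, and of each other list every called gene or, with none called, the gene of lowest adjusted p; other genes of the lists were named after their values were seen. Some genes of these lists are not reported here, and the counts and medians of their lists leave them out. Of the regulators, Huwe1 is not listed under that symbol. For each called member the 3 genes of highest Pearson's r were named, on log2 of CPM plus 0.1. Sequences are from RefSeq, build GRCr8.

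The alternatives changed the scaling in edgeR (size factors of DESeq2, upper quartile, or none but library size), the tool (limma-voom, or DESeq2 1.42.0), the filter (none, or 10 counts required of all libraries) or the model (robust dispersions, or a block on replicate number). They also left out each library in turn and, for the ratio of Bax to Bcl2, added a pseudocount of 0.5 counts. The fits were tested on simulated data.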

Additional observations from a re-analysis of the deposited data

How the results depend on the processing

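All 7 called members kept their direction and their call in each of the 15 alternatives, and Mcl1, Bbc3 and Pmaip1 were called in none, so that 150 of 150 values stayed on their side of the threshold. The largest adjusted p of a called member was 0.00861, for Bcl2l1. The difference in the log2 ratio of Bax to Bcl2, 2.61, moved by less than the SD of the controls (0.12) under each alternative tried for it. That SD is the larger one, beside 0.06 after H3CIT+dsDNA, and the lowest difference was 2.54, without control replicate 3. Over all genes, 277 were called, and 212 to 376 with all libraries under other settings. With 1 library left out the count ran from 164, without H3CIT+dsDNA replicate 1, to 357, without control replicate 3, and it was 184 without control replicate 1. These fits have fewer samples. Libraries of the same replicate number did not visibly deviate together (correlations of -0.0456, 0.00489 and 0.0354 across genes). The labels do not say whether the numbers mark pairs, and correlations near 0 cannot show that they do not. With the replicate block 212 genes and 7 members were called. Depth limits Bik, Bcl2a1 and Bcl2l15, at most 54 counts in any library, and Casp6, Bcl2l10 and Hrk, at 0.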

Other observations

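In control replicate 1, Bak1, Bid and Bok each had 343 counts. In that library 11 genes had this count, where each count from 333 to 353 was held by 8.86 genes on average and by 15 at most. Of the 7 called genes in that window of 186 genes, 4 were at 343. This was noticed after the counts had been seen, and its cause was not tested.

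Over all genes with a group mean of at least 20 counts, 0.373% in controls and 0.364% after H3CIT+dsDNA had group counts that were 3 consecutive whole numbers, against 8.11% and 4.07% of the called genes. Bcl2l11 (56, 55 and 54) and Casp8 (43, 45 and 44) were of this kind in controls. Since a small spread favours a call, the shares among called genes are not independent of the calling.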
